A study of Homo sapiens with 6 samples.

Results

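Cytosolic ribosomal protein genes were taken as every row of the count table whose symbol is that of a protein of the large subunit (RPL and a number, or RPLP0, RPLP1 and RPLP2) or of the small subunit (RPS and a number, or RPSA), with the suffixes A, X, L and L1 allowed. This symbol rule used no measured value and found 84 of 59653 rows, 52 of the large and 32 of the small subunit. Among them, 7 are paralogs, members with the symbol of another member plus L or L1: RPL3L, RPL7L1, RPL10L, RPL22L1, RPL26L1, RPL39L and RPS27L. Their coding sequences are 55.78% to 94.87% identical to those of that other member, called the parent. Both groups of libraries came from SK-OV3, a human ovarian cancer cell line. One group had been transfected for 48 h with siPVT1, a pool of siRNAs against the long non-coding RNA PVT1, and the other for the same time with siControl, a non-targeting pool, with 3 libraries for each. Only a single cell line and a single siPVT1 pool were sequenced, so the effect of lower PVT1 and any other effect of that pool cannot be told apart. The sources used here do not say whether the libraries of a group came from separate cultures, so p-values measure only the spread between these libraries, which may be technical.

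The cytosolic ribosome is built from a small subunit, which reads the mRNA, and a large subunit, which joins amino acids, and nearly every one of its proteins is needed in equal number. The acidic proteins encoded by RPLP0, RPLP1 and RPLP2 form the stalk of the large subunit, where translation factors dock. Most ribosomal protein mRNAs begin with a terminal oligopyrimidine (TOP) tract, a C followed by an unbroken run of C and T, through which the kinase mTOR and the RNA-binding protein LARP1 control their translation and stability. Several ribosomal protein genes have a paralog that is expressed at a lower level or in few tissues.

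The 6 libraries held 28383171 to 35059576 estimated counts each, and the siControl replicate 2 library had the fewest. PVT1 itself was at 3289, 4080 and 3368 normalized counts (counts scaled to a common library size by TMM, edgeR's trimmed mean of M-values) in siControl and at 2344, 2105 and 2057 in siPVT1, without overlap and by a log2 fold change of -0.72 (SE 0.097, edgeR adjusted p = 0.000342). Here and below, "edgeR adjusted p" is the p-value of edgeR's quasi-likelihood test after adjustment by Benjamini and Hochberg over the 19008 genes tested, and a gene is said to rise or fall where it is under 0.05. No 2 libraries of the same group were as close as sampling noise alone would make them, as chi-square over its degrees of freedom was 1.75 to 5.67 between siControl libraries and 8.62 to 45.3 between siPVT1 libraries. The epithelial markers KRT8, KRT18, KRT19, EPCAM, CDH1 and ERBB2 summed to 605 to 766 CPM (counts scaled to a common total) over the libraries, with KRT8, KRT18 and KRT19 higher and ERBB2 lower in siPVT1, and CDH1, which encodes E-cadherin, was at 0 to 46.9 normalized counts. Of 6 fibroblast markers, 3 passed the filter on low counts, COL1A1 and PDGFRA rose, LUM had a log2 fold change of -1.15 (SE 0.60, edgeR adjusted p = 0.132), COL3A1 and DCN were at or near 0, and the sum was 4.42 to 4.90 CPM in siControl and 15.5 to 16.9 in siPVT1. Of 6 leukocyte markers, 3 passed the filter, CD14 fell by a log2 fold change of 1.42, CD3E and MS4A1 were at 0, and the sum was 18.1 to 28 CPM. The part of these markers in the results was not tested, and in bulk RNA fewer cells of a type and less RNA per cell cannot be told apart.

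Most members with a promoter entry hold a run of C and T letters near the annotated start. The count below does not require the run to open at the first base of the mRNA, as a TOP tract does. RefSeq promoters (GRCh38.p14) matched 67 of the 84 members. In 56 of these 67 (83.6%), a run of at least 5 C or T letters opened with C within 10 bases of the annotated start, searched on the transcript's strand alone. The share was 81.0% for the large and 88.0% for the small subunit, against 33.3% of all 27305 promoters. The 30-base windows below run from 10 bases before the start, with the run in capitals. RPL41 and RPLP0 are shown because they fell most among the members with more than a few counts, RPS28 because it was highest, and RPL26 with RPL26L1, RPL22 with RPL22L1, and RPL7L1 for the paralogs.
RPL41 (chr12:56116623-56116652, plus strand): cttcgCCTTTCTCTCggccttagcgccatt
RPLP0 (chr12:120201092-120201121, minus strand): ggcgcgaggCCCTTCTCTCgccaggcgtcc
RPS28 (chr19:8321486-8321515, plus strand): gaagcacgtgaCTCCTCTCCgccagaccgc
RPL26 (chr17:8383174-8383203, minus strand): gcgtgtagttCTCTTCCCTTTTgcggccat
RPL26L1 (chr5:172958719-172958748, plus strand): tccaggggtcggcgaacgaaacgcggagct
RPL22 (chr1:6199576-6199605, minus strand): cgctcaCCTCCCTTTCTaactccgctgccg
RPL22L1 (chr3:170870176-170870205, minus strand): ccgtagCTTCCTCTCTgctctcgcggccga
RPL7L1 (chr6:42879606-42879635, plus strand): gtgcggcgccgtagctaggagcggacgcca
RPL41, RPLP0 and RPL22L1 each carry a run of 10 letters, and the windows of RPL26L1 and RPL7L1 hold no run of the required length. RPS29, among the highest members, and the paralog RPS27L also lacked such a run in this window.

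Most ribosomal protein mRNAs were somewhat more abundant in siPVT1, while a few members of the large subunit fell. Of the 84 members, 83 passed the filter on low counts, and 52 of these rose, 6 fell and 25 did not pass the test, where 29.5% of all genes tested rose and 28.4% fell. The members that fell were RPL41, RPLP0, RPLP1, RPL7L1, RPL26L1 and RPL3L, of which RPL3L could pass the filter only through siControl and is described below by its counts. At a fold change of 2 or more besides the adjusted p, 0 members were called higher against 11.8% of all genes, and 3 (RPL41, RPLP0 and, with the same reservation, RPL3L) were called lower against 9.64%. The count of 0 was the same at an unadjusted p under 0.05 and with DESeq2. The 2 groups of libraries did not overlap in 65 of the 83, 60 of them higher and 5 lower in siPVT1, where 65.6% of all genes did not overlap. The median log2 fold change over the members was 0.27, against 0.00138 over all genes tested.

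The subunits had near-equal medians and different outliers. In the large subunit, 32 members rose, 6 fell and 13 did not pass the test, with a median log2 fold change of 0.28. In the small subunit, 20 rose, 0 fell and 12 did not pass, with a median of 0.27. Among the small subunit's members, RPS26 had the lowest log2 fold change, -0.21 (SE 0.081, edgeR adjusted p = 0.0527). It was the 1 small-subunit gene lower at an unadjusted p under 0.05 or with DESeq2. RPS26 also fell with DESeq2's size factors, total-count scaling, no filter, a replicate block, or pseudogene or paralog counts added. It fell without siControl replicate 2 or siPVT1 replicate 3, but not without any other library, with filterByExpr or with TMM computed without the members. Without the paralogs, RPL41 and RPLP0, the remaining 75 genes, called here the core members, ranged in log2 fold change from -0.24 to 0.55 around a median of 0.29 (1.22-fold). Of these, 51 rose, 1 (RPLP1) fell and 23 did not pass the test. RPL41 and RPLP0 were left out for their low values in these data. The range and the count of falls among the core members are therefore partly set by that choice.

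**Figure D1:**
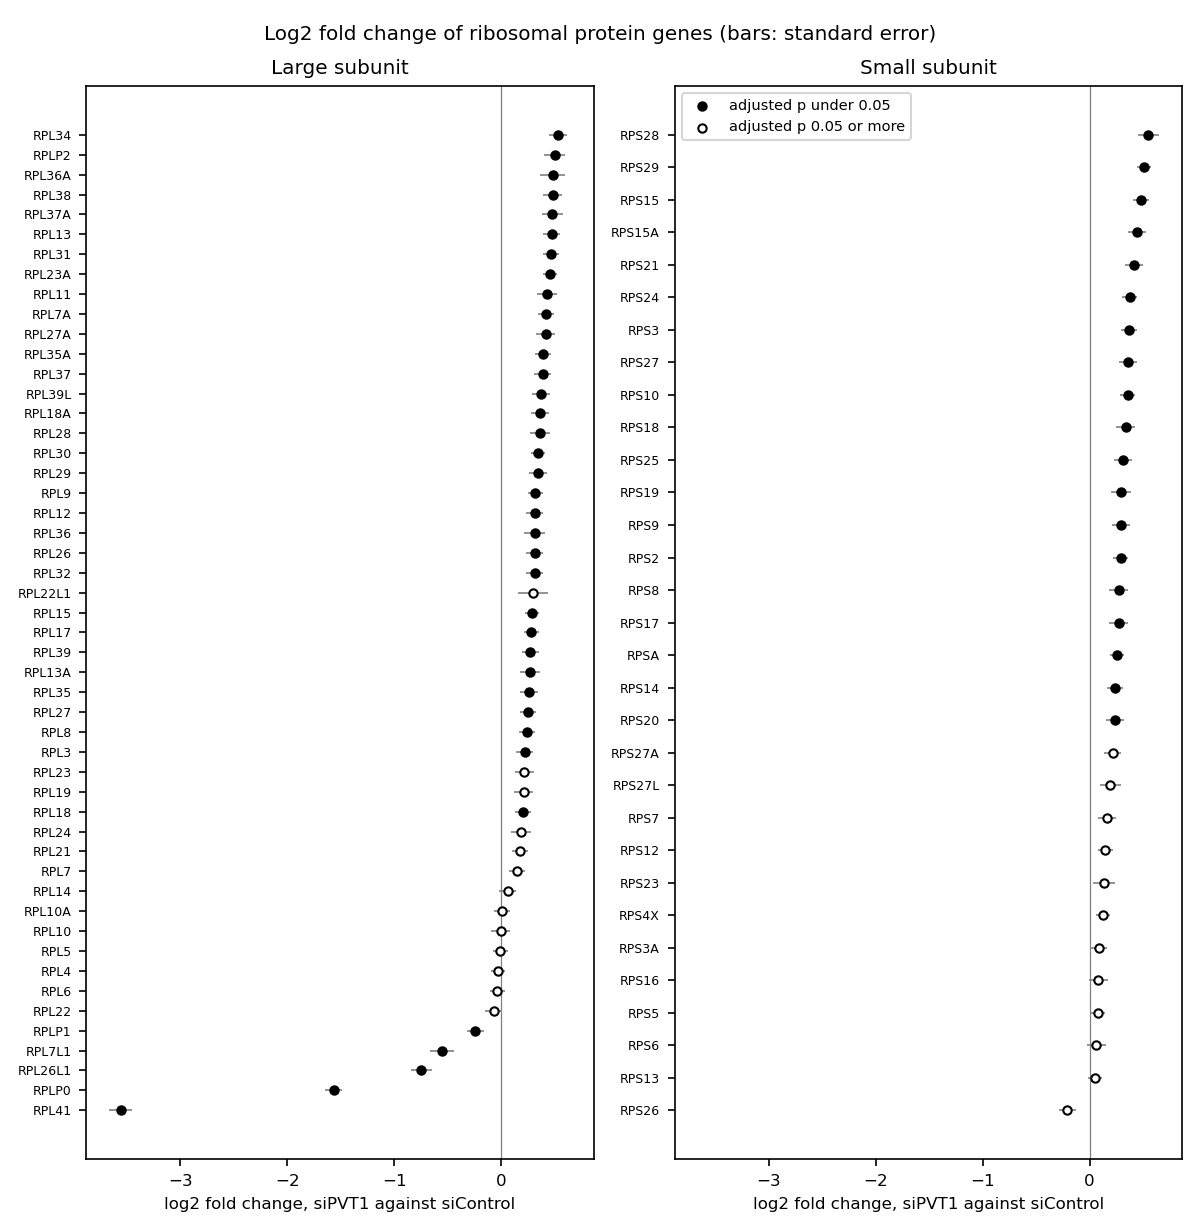
Log2 fold change of siPVT1 against siControl on the x axis for tested ribosomal protein genes on the y axis, in a panel for each subunit, with the standard error as a bar and filled points for edgeR adjusted p under 0.05. RPL3L is left out because its siPVT1 counts are all 0. RPL41 lies at -3.56 and RPLP0 at -1.57, and no small-subunit gene lies below -0.21.

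These counts depend on the scaling and on which libraries are included. Scaling by the total count in place of TMM moves the median over all genes tested, on the log2 scale, from 0.00138 to -0.148 and changes the share of all genes called from 29.5% higher and 28.4% lower to 23.6% and 36.2%. Under it, 30 members rose and 11 fell, the median over the members was 0.12, and all 30 were among the 52. In the siControl replicate 2 library, 75 of the 75 core members were below both other siControl libraries, against 50.8% of all genes. The median log2 offset from those libraries was -0.25 for the core members and -0.05 for all genes. Without this library, 45 members rose and 6 fell, where 27.3% of all genes tested rose and 25% fell. The median over the members was then 0.20, against 0.0145 over all genes tested. Leaving out another library also moved the count. It ran from 42 higher without siPVT1 replicate 2 to 56 without siPVT1 replicate 3. In those fits 24.8% and 30.9% of all genes tested rose. Over all fits that left out a library, 42 of the 52 rose every time, and 30 of these also rose under total-count scaling. Every siPVT1 library was above siControl replicates 1 and 3 in 59 of the 75 core members. The share of all genes that did so was not computed, so this count cannot be read as particular to the members. Over the full groups, 65.6% of all genes did not overlap, counting both directions.

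RPL41, which encodes the smallest protein of the ribosome, fell most among the abundant members. It was at 22103, 17510 and 21887 normalized counts in siControl and at 1643, 1780 and 1805 in siPVT1. The lowest siControl library was far above the highest siPVT1 library. The log2 fold change was -3.56 (SE 0.11, edgeR adjusted p = 4.59e-07), that is, 11.8-fold lower, and it stayed between -3.66 and -3.50 when any library was left out. Its share of all counts was 0.0694% ± 0.0071 (SD, n = 3) in siControl and 0.00533% ± 0.00028 in siPVT1. Its gene lies at chr12:56116590-56117967 (GRCh38, GENCODE v44, plus strand) with 3 exons in the canonical transcript. No other annotated gene overlaps it. The short coding sequence, shown because its length sets this gene apart, has 25 codons before the stop:
RPL41 coding sequence: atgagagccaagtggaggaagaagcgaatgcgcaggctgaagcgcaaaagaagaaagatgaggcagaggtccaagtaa
Of the 75-base stretches of its transcript, 34.2% occur in another annotated transcript, so part of its reads could have been shared with copies. Its named pseudogenes fell too. RPL41P2 was at 242, 231 and 191 normalized counts in siControl and at 16.7, 14.2 and 40.3 in siPVT1, and RPL41P1 was at 79.8, 59.4 and 69.1 against 3.33, 0 and 8.43. The pseudogenes held far fewer counts than RPL41.

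The stalk genes did not move together. RPLP0, whose protein anchors the stalk, was at 47057, 41105 and 47132 normalized counts in siControl and at 16578, 14746 and 14358 in siPVT1. Its groups lay far apart. The log2 fold change was -1.57 (SE 0.083, edgeR adjusted p = 3.38e-06), that is, 2.96-fold lower. RPLP0 lies at chr12:120196699-120201235 on the minus strand, and 42.0% of its 75-base stretches occur in another transcript. Its pseudogene RPLP0P6, at 531, 506 and 606 normalized counts in siControl, was at 193, 181 and 143 in siPVT1 and also fell.

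RPLP1, the partner of RPLP2 in the stalk's dimers, was at 12906, 11028 and 12869 normalized counts in siControl and at 11030, 10258 and 9804 in siPVT1. The lowest siControl library was just below the highest siPVT1 library, so the groups overlapped. RPLP1 had a log2 fold change of -0.24 (SE 0.080, edgeR adjusted p = 0.0294). The call was lost without siControl replicate 1 (edgeR adjusted p = 0.0986), siControl replicate 3 (0.097) or siPVT1 replicate 2 (0.0576). RPLP2 went the other way, from 6135, 4768 and 5963 normalized counts to 8424, 7771 and 7628, with no overlap. It rose by a log2 fold change of 0.50 (SE 0.099, edgeR adjusted p = 0.00285), among the highest of the members.

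**Figure D2:**
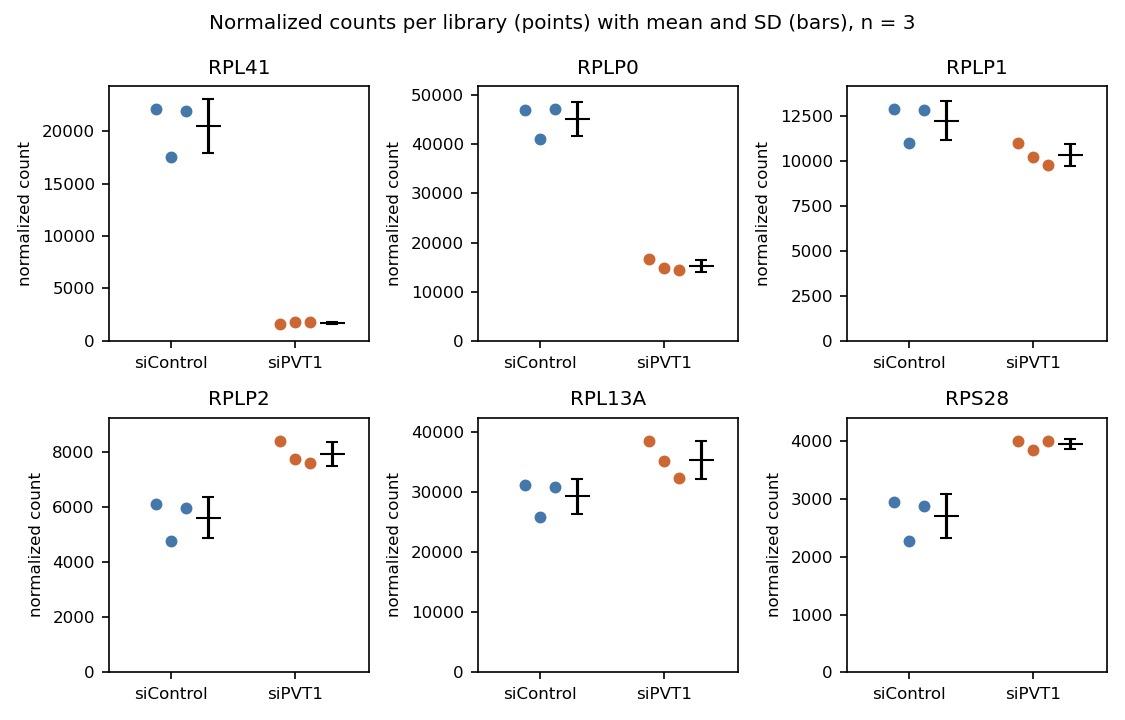
Normalized counts on the y axis (from 0) in each of 3 siControl and 3 siPVT1 libraries (points) for the stalk genes RPLP0, RPLP1 and RPLP2, RPL41, RPL13A and RPS28, with the mean and SD as bars. RPL41 and RPLP0 are lower in every siPVT1 library, RPLP1 overlaps between the groups, and RPLP2 and RPS28 are higher.

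Among the highest members were RPS28, RPL34, RPS29 and RPLP2, with 1.41- to 1.46-fold more counts in siPVT1. RPS28, a small protein of the small subunit, was at 2954, 2269 and 2886 normalized counts in siControl and at 4002, 3844 and 4010 in siPVT1. All siPVT1 libraries were above all siControl libraries. RPS28 rose by a log2 fold change of 0.55 (SE 0.099, edgeR adjusted p = 0.00178). RPS29, a zinc-binding protein of the same subunit, was at 3209, 3013 and 3494 normalized counts against 4644, 4468 and 4706, a log2 fold change of 0.51 (SE 0.069, edgeR adjusted p = 0.000363). RPL34, of the large subunit, was at 4345, 3557 and 4394 against 6112, 5910 and 5747, a log2 fold change of 0.53 (SE 0.087, edgeR adjusted p = 0.00102). In all of these the lowest control was siControl replicate 2, and no group overlapped with the other. These genes also rose when any library was left out and under total-count scaling.

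RPL13A, RPL3, RPS6 and RPS3 had log2 fold changes from 0.06 (RPS6) to 0.36 (RPS3), where the median over the members was 0.27. RPL13A, for which the study lists RT-qPCR primers, was at 31198, 25908 and 30823 normalized counts in siControl and at 38591, 35134 and 32335 in siPVT1. The groups did not overlap, but the lowest siPVT1 library was only slightly above the highest control. Its log2 fold change was 0.27 (SE 0.094, edgeR adjusted p = 0.0362), or 1.21-fold. The call was lost under total-count scaling (log2 fold change 0.12, edgeR adjusted p = 0.229), and without siControl replicate 2 (0.0973), siControl replicate 3 (0.0562), siPVT1 replicate 1 (0.0814) or siPVT1 replicate 2 (0.0827).

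RPL3, a core protein near the peptidyl transferase centre, was at 34688, 29598 and 34307 normalized counts in siControl and at 40773, 38110 and 35878 in siPVT1. It rose by a log2 fold change of 0.22 (SE 0.081, edgeR adjusted p = 0.0456), and this call was lost under total-count scaling and without any library but siPVT1 replicate 3 (edgeR adjusted p from 0.06 to 0.113 without the others). RPS6, the small-subunit protein that S6 kinase phosphorylates downstream of mTOR, was at 26040, 21117 and 25956 against 26111, 25457 and 24832, and the groups overlapped. The log2 fold change of RPS6 was 0.06 (SE 0.086, edgeR adjusted p = 0.560). RPS3, which lies at the mRNA entry channel, was at 24770, 21352 and 24841 against 31871, 30464 and 29011, and it rose by a log2 fold change of 0.36 (SE 0.076, edgeR adjusted p = 0.00358).

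The spread of the core members within siControl rested on a single library. Their coefficient of variation had a median of 9.65% over siControl libraries and of 3.25% over siPVT1 libraries. Without siControl replicate 2 the siControl median was 0.836%. With any siPVT1 library left out, the siPVT1 median was 2.04% to 3.56%, lowest without replicate 1. A median with a library left out rests on fewer libraries and is less certain. The coefficient was largest in siControl for RPL36A, RPL37A and RPS23. RPL36A was at 6523, 4667 and 6252 normalized counts, RPL37A at 13524, 10484 and 13503, and RPS23 at 20734, 16194 and 20993, each time with siControl replicate 2 as the low library. In siPVT1, the largest spread was in the paralogs RPL22L1, RPL7L1 and RPS27L.

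The paralogs went in different directions from each other. Of 7, RPL10L, whose parent RPL10 joins late in large-subunit assembly, had a single count in 1 siControl library and 0 in the other libraries, and was not tested. RPL3L, known from heart and skeletal muscle, had 18, 18 and 17 counts in siControl and 0 in every siPVT1 library. Against a floor of 3 counts per library it was at least 5.41-fold lower in siPVT1. It passed the count filter only through the siControl libraries, so its test and its place among the genes that fell give no support. It fell below the count filter, and so was not tested, when any siControl library was left out. In siControl, RPL3L made up 0.0456% to 0.0612% of the counts of its pair with RPL3.

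RPL26L1, at 84.25% coding identity to RPL26, was at 1332, 1072 and 1253 normalized counts in siControl and at 666, 729 and 783 in siPVT1. The groups lay apart. RPL26L1 had a log2 fold change of -0.75 (SE 0.10, edgeR adjusted p = 0.000365), while RPL26 rose by 0.31 (SE 0.076, edgeR adjusted p = 0.0082). As a share of the pair's counts, RPL26L1 went from 6.01%, 5.79% and 5.76% to 2.61%, 2.95% and 3.15%. RPL7L1, at 55.78% identity to RPL7 and part of large-subunit precursors, was at 8341, 8056 and 8487 normalized counts against 4889, 5346 and 6740. It fell by a log2 fold change of 0.55 (SE 0.11, edgeR adjusted p = 0.00304). RPL7 had a log2 fold change of 0.15 (SE 0.076, edgeR adjusted p = 0.136), and RPL7L1 went from 15.5%, 17.4% and 15.9% of the pair to 9.16%, 10.3% and 12.5%. Both pairs thus held less of the paralog in every siPVT1 library than in any control.

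RPL39L, known from testis and at 94.87% coding identity to RPL39, was at 554, 472 and 542 normalized counts in siControl and at 673, 665 and 687 in siPVT1. It rose by a log2 fold change of 0.37 (SE 0.084, edgeR adjusted p = 0.00574), and RPL39 by 0.27 (SE 0.079, edgeR adjusted p = 0.0175). Its share of the pair was 5.13% to 5.31% in siControl and 5.40% to 5.78% in siPVT1. The call of RPL39 was lost under total-count scaling (log2 fold change 0.12, edgeR adjusted p = 0.134).

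RPL22L1, at 66.58% identity to RPL22, was at 4902, 4277 and 4758 normalized counts in siControl and at 4766, 5298 and 7050 in siPVT1. The groups overlapped, and the siPVT1 replicate 3 library was far above the others. Its log2 fold change was 0.30 (SE 0.14, edgeR adjusted p = 0.0956), which passed the test without siPVT1 replicate 1 (log2 fold change 0.40, edgeR adjusted p = 0.0195). Without siPVT1 replicate 3 it was 0.10 (edgeR adjusted p = 0.193), and under total-count scaling 0.15 (edgeR adjusted p = 0.362). RPL22 was at -0.07 (SE 0.077, edgeR adjusted p = 0.455), at -0.15 without siControl replicate 2 (edgeR adjusted p = 0.0771) and at -0.22 under total-count scaling, where it fell (edgeR adjusted p = 0.0173). As for the pair, RPL22L1 went from 40.2%, 40.8% and 39.2% of the pair to 41.9%, 45.2% and 50.7%. RPS27L, a target of p53 with 78.04% identity to RPS27, was at 4535, 3841 and 4605 normalized counts against 5478, 4904 and 4478. Its log2 fold change was 0.19 (SE 0.097, edgeR adjusted p = 0.120), which passed the test without siPVT1 replicate 3 (log2 fold change 0.25, edgeR adjusted p = 0.015). It was 0.10 without siPVT1 replicate 1 (edgeR adjusted p = 0.321), 0.12 without siControl replicate 2 (edgeR adjusted p = 0.327) and 0.05 under total-count scaling (edgeR adjusted p = 0.669). RPS27 rose by 0.36 (SE 0.083, edgeR adjusted p = 0.00631), and the share of RPS27L in the pair was 29.8% to 30.6% in siControl and 26.7% to 29.2% in siPVT1.

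**Figure D3:**
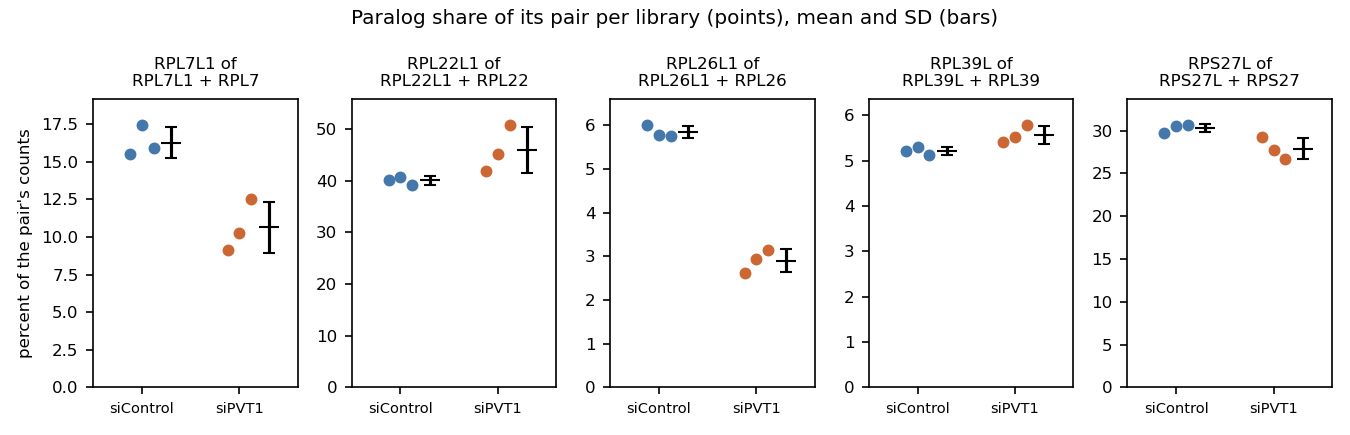
Counts of each paralog as a percent of paralog plus parent counts on the y axis (from 0) in each siControl and siPVT1 library (points), with the mean and SD as bars. The shares of RPL26L1 and RPL7L1 are lower in every siPVT1 library, and those of RPL22L1 are higher, from 41.9% to 50.7%.

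As a share of all counts, the members together took 4.48%, 3.98% and 4.49% in siControl and 4.55%, 4.37% and 4.30% in siPVT1. The groups overlapped, with means of 4.32% ± 0.29 and 4.41% ± 0.13 (SD, n = 3). Without siControl replicate 2 the difference, 0.0895 percentage points, became -0.0792. The large subunit took 2.79% ± 0.18 in siControl and 2.77% ± 0.083 in siPVT1, and the small subunit 1.53% ± 0.11 and 1.64% ± 0.050. The ratio of large- to small-subunit counts was 1.83, 1.84 and 1.82 in siControl and 1.69, 1.69 and 1.70 in siPVT1, with every siPVT1 library below every control. Without RPL41 and RPLP0 it was 1.683, 1.692 and 1.670 against 1.661, 1.659 and 1.668, still lower in each siPVT1 library but by far less. These ratios within a library do not depend on the scaling between libraries.

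**Figure D4:**
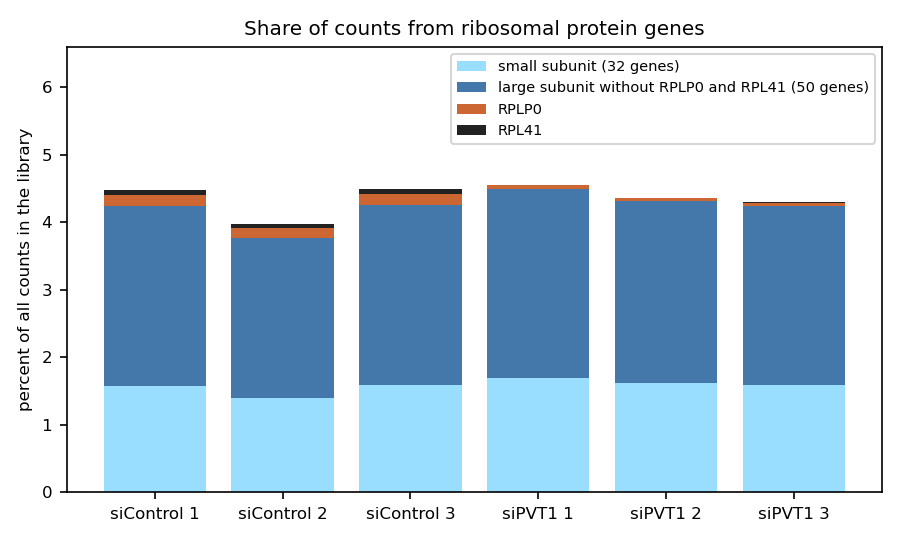
Percent of all counts of a library (y axis, from 0) taken by small-subunit genes, large-subunit genes without RPLP0 and RPL41, RPLP0, and RPL41 (stacked) in each of the 6 libraries (x axis). The total is lowest in siControl 2 at 3.98%, and the RPL41 and RPLP0 segments are smaller in every siPVT1 library.

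To compare levels between genes, normalized counts were divided by the coding length. This overstates genes with long untranslated parts, among them RPL41. Per coding kilobase, 69 of the 75 core members lay within 2-fold of their median of 28700 in siControl, and the highest was 8.52-fold above the lowest. RPL41, RPS20 and RPL39 were highest in siControl, at 273300, 75980 and 62050 normalized counts per coding kilobase. RPL10L, RPL3L and RPL26L1 were lowest, at 0.478, 13.9 and 2802. In siPVT1, RPL41 went from rank 1 to rank 63 of the 83 tested members with 23230, and RPLP0 from rank 10 with 47420 to rank 76 with 16010. The core members kept a similar order, with a Spearman correlation of 0.958 between the groups over 75 genes measured in the same libraries.

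Among the core members, those with short coding sequences had the larger fold changes. The median log2 fold change was 0.37 in the 25 shortest (153 to 405 bases), 0.30 in the middle 25 and 0.21 in the 25 longest (576 to 1281 bases), of which 21, 18 and 12 rose. Over the 75 genes, Spearman's rho between log2 fold change and coding length was -0.444, and it was -0.384 to -0.490 when any library was left out. Other protein-coding genes in the same range of lengths, 5973 of them, gave -0.0121. The offset of siControl replicate 2 from the other controls also followed coding length (rho 0.458). It did so over all 13709 tested protein-coding genes with a known length as well (rho 0.259). Without that library the rho for the fold change over the 75 genes was -0.398. The points share the same 6 libraries and their depth, and the part of that library's offset in the relation was not tested.

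**Figure D5:**
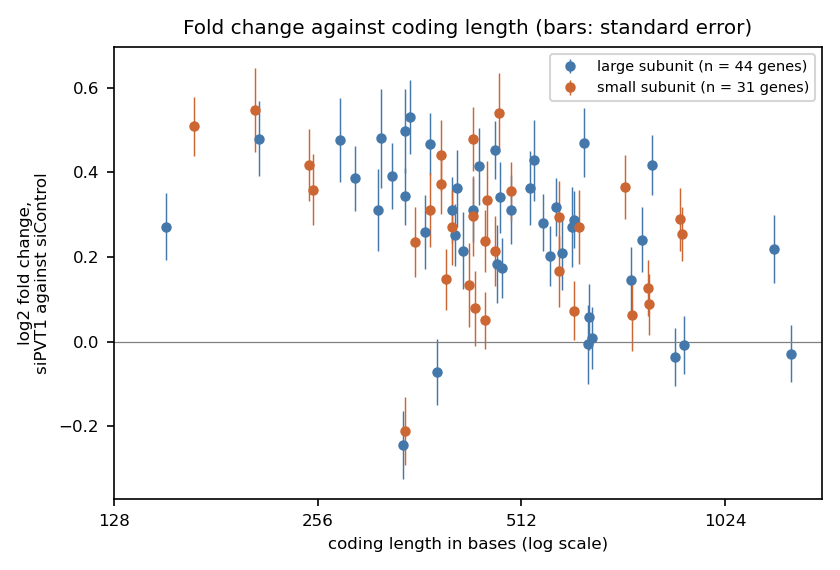
Log2 fold change of siPVT1 against siControl (y axis) by coding length in bases (x axis, log scale) for the 75 core members, coloured by subunit, with the standard error as a bar. The shorter genes lie higher, with a median of 0.37 in the 25 shortest and 0.21 in the 25 longest. RPL41 and RPLP0, which fell, are not shown.

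The fold change also followed the level in siControl, with a Spearman's rho of -0.399 over the same 75 genes, and the siControl libraries enter both measures. The 28 core members that hold a small nucleolar RNA gene in their span had a median of 0.28 on the log2 scale, against 0.29 in the other 47. With a run of C and T letters near the start, as counted above, the median was 0.30 (53 genes). Without it the median was 0.28 (7 genes with a RefSeq promoter). Read sharing with copies was common, since a median of 15.8% of a member's 75-base stretches occurred in another transcript, 16 members were above 50% and 14 at 0%. The median log2 fold change was 0.28 for core members above 50% and 0.35 for the 10 at 0%. The 1242 rows named as pseudogenes of members took 0.0882% of the counts in siControl and 0.0899% in siPVT1.

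Of 4 ribosome components outside the symbol rule, 3 rose, where 29.5% of all genes tested rose. RACK1, a scaffold on the small subunit (log2 fold change 0.24), and RPL36AL, a paralog of RPL36A (0.53), were among those that rose. FAU, which encodes a ribosomal protein fused to a ubiquitin-like protein, was at 0.19 (SE 0.10, edgeR adjusted p = 0.149). Under total-count scaling, 1 of the 4 rose, where 23.6% of all genes tested rose. Other mRNAs known to carry a TOP tract were mixed, with 6 of 19 rising and 3 falling, against 29.5% and 28.4% of all genes tested, and a median log2 fold change of 0.10, which was -0.05 under total-count scaling. VIM, the intermediate filament vimentin (0.70), TPT1, an abundant translation-associated protein (0.50), and EEF1G, a subunit of elongation factor 1 (0.44), rose. EEF2, the elongation factor that moves the ribosome along the mRNA (-0.30), NPM1, a nucleolar chaperone (-0.32), and IPO5, a nuclear import receptor (-0.33), fell.

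The dedicated chaperones of ribosomal proteins were mostly lower. Of 11 genes, 9 fell and 0 rose, against 28.4% and 29.5% of all genes tested, with a median log2 fold change of -0.93 in the list. The count of 0 was the same at an unadjusted p under 0.05 and with DESeq2. RRS1 and RPF2, which bring RPL5 and RPL11 to the large subunit, had log2 fold changes of -1.41 (SE 0.19, edgeR adjusted p = 0.000395) and -1.17 (SE 0.11, edgeR adjusted p = 6.25e-05). PDCD2L, which binds RPS2, was at -1.20 (SE 0.13, edgeR adjusted p = 0.000104), and GRWD1, the chaperone of RPL3, at -0.94 (SE 0.17, edgeR adjusted p = 0.00194). The 2 that did not pass were AAMP (0.04) and TSR2 (0.01), the chaperone of RPS26. The counts of this list were the same under total-count scaling and in each fit without a library.

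The genes that control TOP mRNA translation were mostly lower. Of 16, 11 fell, 1 rose and 4 did not pass the test, where 28.4% of all genes tested fell and 29.5% rose, with a median log2 fold change of -0.44. LARP1, which binds the cap and the TOP tract, was at 19196, 20161 and 19401 normalized counts in siControl and at 8916, 9288 and 10515 in siPVT1. Its log2 fold change was -1.03 (SE 0.073, edgeR adjusted p = 1.25e-05), and the groups did not overlap. MTOR, the kinase itself, was at 4359, 4244 and 4274 against 1917, 2304 and 2802 (log2 fold change -0.87, SE 0.12, edgeR adjusted p = 0.000444). EIF4EBP2, a repressor of cap-dependent translation that mTOR inactivates, had a log2 fold change of -1.12 (SE 0.074, edgeR adjusted p = 9.26e-06). TSC1, part of the complex that restrains mTOR, rose by 0.34 (SE 0.057, edgeR adjusted p = 0.00122).

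The genes of the mitochondrial ribosome, the gene set most like the members in function, were mostly lower. Of 78, 49 fell, 4 rose and 25 did not pass the test, against 28.4% of all genes lower and 29.5% higher, with a median log2 fold change of -0.40 and a range from -1.54 to 0.73. The share of their promoters with a run of C and T letters near the start was 31.1% (74 promoters), close to the 33.3% of all promoters. Under total-count scaling, 60 fell and 1 rose, where 36.2% of all genes fell and 23.6% rose.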

How the data were processed

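RNA from SK-OV3 cells was made into 6 mRNA libraries and sequenced as 75-base single-end reads. The authors used STAR for alignment to GENCODE transcripts (GRCh38) and Salmon for counting. The table the authors deposited gives estimated counts by symbol, already rounded and not normalized, which were used unchanged. The submitters' processing notes name STAR 2.7.3a, Salmon 0.14.1, bcl2fastq 2.20.0 and DESeq2 1.28.1. The strand setting is not given in the sources used here, so overlapping genes are uncertain, as are near-identical copies, between which Salmon divides reads by estimation. Of 59653 rows, 25268 had 0 counts in every library.

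Groups and replicate numbers came from the sample labels. Genes with at least 5 TMM-normalized counts in at least 3 libraries were tested with edgeR 4.0.16 (R 4.3.3), by its quasi-likelihood test with the siRNA as the only term and Benjamini-Hochberg adjustment over all genes tested. The standard error is the size of the log2 fold change over the root of F. Genes were called at an adjusted p under 0.05, and separately with a log2 fold change of 1 or more in size as well. The code was tested on simulated data. Some genes are not reported here. Correlations across genes are descriptions, since genes are not independent replicates.

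The members and lists were chosen with earlier results of these data known. The rule for names took PVT1, the paralogs with their parents, RPL41, RPL13A, RPS6, RPLP0, RPL3, RPS3, members past both thresholds, the 5 highest and 5 lowest, those with the largest spread, the 3 most and least abundant, members not tested and members of the lists. RPLP1, RPS26, the pseudogenes, the neighbouring genes and the other abundant transcripts were named after their values were seen. Lengths, coordinates and transcripts came from GENCODE v44 on GRCh38, and promoters from RefSeq on GRCh38.p14. The alternatives were DESeq2 1.42.0, its size factors in edgeR, total-count scaling, TMM computed without the members, edgeR's filterByExpr or no filter, a block for the replicate number, pseudogene or paralog counts added to the member, and each library left out. The core members were set apart, and the relation with coding length was examined, after seeing the data.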

Additional observations from a re-analysis of the deposited data

How the results depend on the processing

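Total-count scaling changed the counts of members called at the adjusted p. It gave 30 members higher in place of 52 and 11 lower in place of 6, against 23.6% and 36.2% of all genes tested. The median log2 fold change over the members was 0.124 in place of 0.271. Of ribosome components outside the symbol rule, 1 was called in place of 3. Total-count scaling also turned RPL7 to -0.00166 and RPS6 to -0.0835, neither of which passed the test. Without a library, the members called higher ranged from 42 to 56, those called lower from 4 to 7, the median from 0.203 to 0.314, and the difference in the share of counts from -0.0792 to 0.178 percentage points. It was negative without siControl replicate 2 alone. Of all genes tested in these fits, 24.8% to 30.9% were called higher and 22.9% to 33.4% lower. RPL10, at -0.00655 with all libraries, ranged from -0.0903 to 0.0397, and RPS6 from -0.0281 to 0.108, and neither passed the test. RPL22 was at 0.00255 with its pseudogenes added and at 0.0727 with RPL22L1 added. The cause of these changes was not tested. DESeq2 called 53 members higher and 7 lower, against 27.7% and 27.4% of all genes tested.

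Libraries with the same replicate number did not deviate together (correlations of -0.0324, 0.0206 and 0.000861). So few libraries cannot show whether the numbers mark a shared culture or batch. With the replicate block, 54 members were higher and 7 lower, among them all 52 and all 6 of the fit without it. In the fit with the block, 27.9% of all genes tested were higher and 27.1% lower. With 3 libraries a group, differences smaller than about the spread of the siControl libraries could not be shown, and counts divided between near-identical copies are estimates.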

Other observations

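RPL41 and RPLP0 stood among the most reduced of the abundant transcripts. Of 445 genes with a siControl mean of at least 10000 normalized counts, 56 of them members, 28 fell at least 2-fold with an edgeR adjusted p (quasi-likelihood test, Benjamini-Hochberg adjustment) under 0.05. Over all 19008 genes tested, 1833 (9.64%) did so, so such falls were not more common among the abundant genes. By log2 fold change, AKR1C1, an aldo-keto reductase, fell most, RPL41 came next and EIF5A, a translation factor, after it, while RPLP0 was at rank 13. The list also held LARP1, the cystine and amino acid transporter subunits SLC7A11, SLC7A5 and SLC3A2, and the chaperones HSPA8, HSPH1, DNAJA1, HSP90AB1 and HSPD1. This group was chosen after its values were seen.

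The protein-coding neighbours of RPL41 on chromosome 12 went in different directions, while those of RPLP0 fell, as RPLP0 did. Beside RPL41, PA2G4, which encodes a ribosome-associated growth regulator, had a log2 fold change of -0.90 (SE 0.14), and ESYT1, which encodes an extended synaptotagmin, had 0.55 (SE 0.057). Beside RPLP0, GCN1, which senses stalled and collided ribosomes, had -0.56 (SE 0.076), and PXN, which encodes paxillin, had -0.26 (SE 0.073). All 4 passed the test (edgeR adjusted p under 0.05), where 29.5% of all genes tested rose and 28.4% fell. Whether position on the chromosome had a part in these changes was not tested.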
